A study of Mus musculus with 7 samples.

Results

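The genes described here are the receptors of the ErbB family and a set of their ligands in cultured BB-p53n OPCs. All rows of the gene table whose symbol is *Egfr*, *Erbb2*, *Erbb3*, *Erbb4*, *Nrg1*, *Nrg2*, *Nrg3*, *Nrg4*, *Hbegf* or *Tgfa* were taken, which gave 10 genes of 33696 in 11 rows, since *Nrg1* has a second Ensembl identifier on which 0 UMIs were counted. BB-p53n OPCs are primary oligodendrocyte progenitor cells from early postnatal *Trp53* fl/fl C57BL/6 pups of either sex, selected with an antibody against CD140a, the PDGFRα protein, and transduced with a PDGFB-IRES-CRE retrovirus. Every cell of the culture was therefore meant to carry both the *Trp53* deletion and PDGFB overexpression, and OPCs without either were not analysed here. Nuclei were sequenced as 1 snRNA-seq library, without a replicate, and the 3 early-tumor and 3 late-tumor brain samples of the study were not analysed here.

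ErbB receptors are tyrosine kinases of the cell surface that act in pairs. EGFR is bound by ligands of the EGF family such as TGFα and HB-EGF, ERBB3 and ERBB4 are bound by neuregulins, ERBB2 has no known ligand of its own and serves as the partner of the others, and ERBB3 has very weak kinase activity and also depends on a partner. In the oligodendrocyte lineage, EGFR signaling is known for expanding progenitors, and neuregulin signaling through ERBB3 and ERBB4 for survival, differentiation and myelination.

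Of 10047 barcodes, 8917 had 2000 to 8000 detected genes and were kept, with 141138093 UMIs in all and a median of 13771 UMIs per nucleus (3153 to 52240). Nuclei were described by their UMIs of *Pdgfra*, the receptor that marks OPCs. There were 2341 nuclei without a *Pdgfra* UMI (26.3%), 1000 with 1 UMI and 5576 with 2 or more (62.5%), with median depths of 10621, 10416.5 and 16258 UMIs, so that depth differed with the class. The label was checked on marker lists. The 10 OPC markers summed to 5802 CPM, the UMIs of the genes scaled to the total UMIs of the nuclei considered, against 7.58 CPM for 8 microglial, 12 for 8 endothelial and 0.730 for 8 fibroblast or pericyte markers. The 8 astrocyte and 10 neuronal markers stood between these, at 537 and 141 CPM, with the microglial *C1qa* and the endothelial *Cldn5* at 0 UMIs. These 2 sums rested on few genes. *Slc1a3*, *Aldoc* and *S100b* had 33514, 27100 and 12964 of the 75741 astrocyte marker UMIs, and *Syt1* had 15377 of the 19951 neuronal ones. *Gfap* had 160 UMIs, *Aqp4* 4 and *Stmn2* 4. This set of symbols was selected on measured UMI levels in these same nuclei, the ratios between the *Pdgfra* classes among them, so all differences between the classes are descriptions without a test. Intervals are 95% intervals that cover counting error only and say nothing about the spread between cultures.

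*Egfr*, *Tgfa* and *Erbb4* are the members on which the description below turns, *Egfr* being higher in nuclei without *Pdgfra* and both of the others lower, so the 250 bases before their annotated starts are shown first. They come from GRCm39 with GENCODE vM39 starts, run 5′ to 3′ on the strand of the gene and touch no annotated exon. *Egfr* is at chr11:16701948-16702197 (plus strand), *Erbb4* at chr1:69147620-69147869 (minus strand) and *Tgfa* at chr6:86171791-86172040 (plus strand). Capitals mark matches, on either strand, to the GC box, spelled GGGCGG, or to the CCAAT box, whose letters are its name.
*Egfr*: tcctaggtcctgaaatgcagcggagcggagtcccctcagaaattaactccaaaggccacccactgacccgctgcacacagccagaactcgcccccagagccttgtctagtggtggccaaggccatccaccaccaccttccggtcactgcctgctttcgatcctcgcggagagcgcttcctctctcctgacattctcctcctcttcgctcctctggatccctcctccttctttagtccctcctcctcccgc
*Erbb4*: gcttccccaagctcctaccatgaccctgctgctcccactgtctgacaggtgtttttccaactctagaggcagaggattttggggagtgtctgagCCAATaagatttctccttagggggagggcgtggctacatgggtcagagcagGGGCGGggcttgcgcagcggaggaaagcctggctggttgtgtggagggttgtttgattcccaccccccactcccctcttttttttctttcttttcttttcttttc
*Tgfa*: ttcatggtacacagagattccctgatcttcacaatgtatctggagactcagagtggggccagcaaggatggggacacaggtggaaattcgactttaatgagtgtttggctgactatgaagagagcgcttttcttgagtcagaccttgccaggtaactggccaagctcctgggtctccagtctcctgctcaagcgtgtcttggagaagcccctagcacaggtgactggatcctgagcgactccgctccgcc
The window of *Erbb4* held 1 GC box and 1 CCAAT box, beginning 105 and 156 bases before the start, while those of *Egfr* and *Tgfa* held neither. None of the 3 windows held a TATA box, spelled TATAAA. No match overlapped another. Of the same windows before 21770 protein-coding genes, a GC box was present in 29.9%, a CCAAT box in 36.1% and a TATA box in 12.5%. The GC content was 60.0% before *Egfr*, 54.0% before *Erbb4* and 53.2% before *Tgfa*, against a median of 51.2%. These matches describe the letters only.

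Of the 4 receptors, *Erbb4*, which encodes a neuregulin receptor with an active kinase, had the highest count in the library, 141361 UMIs or 1002 CPM (996 to 1007). *Egfr* was at 60.6 CPM (59.4 to 61.9) and *Erbb3* at 58.0 CPM (56.7 to 59.3), on 8560 and 8184 UMIs. *Erbb2*, the partner receptor, was counted only 335 times, a level of 2.37 CPM (2.13 to 2.64). In a nuclear library long genes collect more UMIs, since unspliced RNA is counted, and *Erbb4* spans 1076.28 kb (chr1:68071345-69147619, minus strand) while *Erbb3* spans 22.42 kb (chr10:128403392-128425811, minus strand). Per 100 kb of gene span the order of the receptors was *Erbb3* at 259 CPM, *Erbb4* at 93.1, *Egfr* at 36.5 (chr11:16702198-16868158, plus strand) and *Erbb2* at 9.37 (chr11:98303203-98328542, plus strand). On this scale *Erbb3* stood first and *Erbb2* last among the receptors, with intervals of their counts far apart.

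Among the ligands, *Nrg1*, the neuregulin best known from Schwann cells and axons, was at 122 CPM (120 to 123), *Tgfa*, which encodes an EGFR ligand, at 93.3 (91.7 to 94.9) and *Nrg2*, whose product binds ERBB3 and ERBB4, at 69.6 (68.2 to 71.0). *Nrg3*, a neuregulin that binds ERBB4, was at 54.5 CPM (53.2 to 55.7) and *Hbegf*, which encodes heparin-binding EGF-like growth factor, at 28.8 (27.9 to 29.7). *Nrg4*, a neuregulin that binds ERBB4, was near the limit of what the library could measure, with 116 UMIs in 109 nuclei and 0.822 CPM (0.679 to 0.986). Per 100 kb the order among the ligands changed to *Hbegf* at 246 CPM, *Tgfa* at 116, *Nrg2* at 38.5, *Nrg1* at 11.4, *Nrg3* at 4.91 and *Nrg4* at 0.729. *Nrg1* (chr8:32303906-33374825, minus strand) and *Nrg3* (chr14:38087063-39196036, minus strand) are genes of 1070.92 and 1108.97 kb, which places them low on this scale. *Tgfa* lies at chr6:86172041-86252728 (plus strand) and *Nrg4* at chr9:55121336-55234128 (minus strand).

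To compare shares of nuclei at equal depth, each nucleus was thinned at random to 5000 UMIs, which left out 157 shallower nuclei, 75 of them without a *Pdgfra* UMI and 37 with 2 or more, and kept 8760. An *Erbb4* UMI was present in 80.6% of the thinned nuclei, against 86.4% before thinning. The next most widely detected members were *Tgfa* with 31.3% (56.9% before thinning), *Nrg1* with 27% (41.5%) and *Nrg2* with 26.8% (55.2%). *Egfr* was detected in 20.7% (31.6%), *Erbb3* in 18.9% (37.4%), *Nrg3* in 14.3% (22.5%) and *Hbegf* in 12.7% (31.1%). *Erbb2* and *Nrg4* were rare, at 1.07% (3.56%) and 0.411% (1.22%). Apart from *Erbb4*, each member was thus seen in fewer than 1 in 3 nuclei at this depth.

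Between the *Pdgfra* classes, *Egfr*, *Erbb2* and *Hbegf* were at least 2-fold higher in nuclei without *Pdgfra*, and *Erbb3*, *Tgfa*, *Erbb4* and *Nrg3* at most 0.5 times as high. Among 14315 genes with at least 100 UMIs over both classes, 8.49% were at least 2-fold higher and 6.4% at most 0.5 times as high, with a median ratio of 1.11. The median of the 10 members was 0.583. Since the members were described against this very contrast with its results known, the 3 higher and 4 lower members are not read against the background. *Hbegf* and *Nrg3* lay just past 2-fold, with ratios of 2.04 and 0.491, and *Nrg1* lay just short of it with 0.550. Beyond the members, the highest ratios of all genes were those of *Or10ad1* (25.6), *Platr26* (21.5) and *Tsix* (21.4), and the lowest, *Pdgfra* aside, those of *Gm12146* (0.0545), *Gm26588* (0.0448) and *Asb9* (0.0239).

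*Egfr* was at 200.5 CPM (195 to 206) in nuclei without *Pdgfra*, at 85.0 (79.8 to 90.5) with 1 UMI, at 32.6 with 2 to 3, at 19.9 with 4 to 7 and at 17.2 (15.9 to 18.5) with 8 or more. The level was lower at each step of *Pdgfra* UMIs, although the intervals of the 2 highest classes met, and the level without *Pdgfra* was 9.27 times (8.82 to 9.75) that of nuclei with 2 or more, which stood at 21.6 CPM. *Erbb3* ran the other way, at 5.06 CPM (4.24 to 5.98), 30.9, 49.99, 75.1 and 88.3 (85.4 to 91.2) over the same 5 classes. Its ratio of nuclei without *Pdgfra* to those with 2 or more UMIs was 0.0676 (0.0566 to 0.0802), and its level without *Pdgfra* is set against free RNA further on.

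*Erbb4* was at 310.4 CPM (304 to 317) without *Pdgfra*, at 879 with 1 UMI and at 1100.3, 1219.9 and 1224 in the higher classes. Most of the difference thus lay between 0 and 2 to 3 *Pdgfra* UMIs and little above that. The level without *Pdgfra* was 0.260 times (0.254 to 0.266) that of nuclei with 2 or more UMIs. The EGFR ligand *Tgfa* was higher at each step, from 19.2 CPM (17.5 to 20.9) through 63.4, 91.2 and 112 to 133 (129 to 137). Its ratio of nuclei without *Pdgfra* to those with 2 or more UMIs was 0.165 (0.151 to 0.181). *Tgfa* and the receptor its product binds were thus at their highest levels at opposite ends of the *Pdgfra* classes.

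*Erbb2* was at 5.32 CPM (4.48 to 6.27) without *Pdgfra* and between 1.57 and 1.90 in the other 4 classes, whose intervals overlapped. The ratio of 3.20 (2.54 to 4.02) rests on 142 and 171 UMIs. *Hbegf* had the same shape at a higher level, 48.7 CPM (46.1 to 51.4) without *Pdgfra* and 22.5 to 26.1 in the other classes. *Nrg1* and *Nrg3* were highest in nuclei with 1 *Pdgfra* UMI, at 162 CPM (155 to 170) and 80.1 CPM (75.02 to 85.4), and lowest without *Pdgfra*, at 71.6 and 28.6. *Nrg3* was lower again, at 47.3 CPM, with 8 or more UMIs. *Nrg2* differed little, from 63.4 CPM (60.4 to 66.5) without *Pdgfra* to 80.2 (77.4 to 82.9) with 8 or more, and *Nrg4* had wide intervals, with a ratio of 0.615 (0.331 to 1.07).

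**Figure D1:**
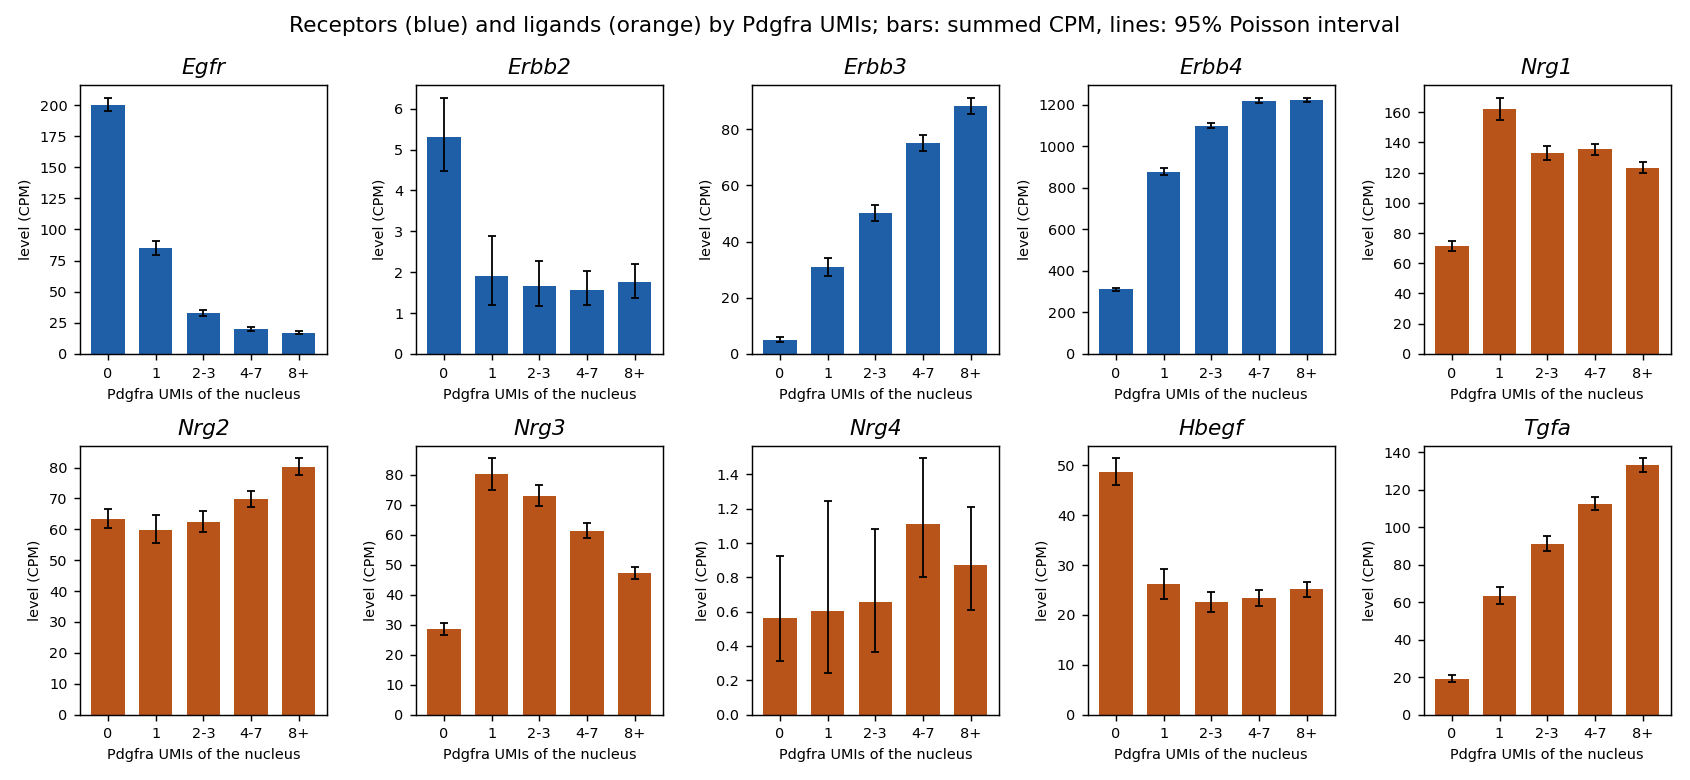
Level of each member (CPM, linear axis from 0) in nuclei with 0, 1, 2 to 3, 4 to 7 and 8 or more *Pdgfra* UMIs of the 1 library; bars are summed CPM and lines 95% exact Poisson intervals. *Egfr* is at 200.5 CPM in the lowest and 17.2 in the highest class, while *Erbb3* is at 5.06 and 88.3 and *Tgfa* at 19.2 and 133.

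Depth was held equal by thinning and brought closer within quartiles of UMIs per nucleus. Within quartiles the median UMIs of nuclei without *Pdgfra* and with 2 or more still differed. They were 8036.5 and 8299 in the shallowest quartile and 22857 and 25870 in the deepest. When the class and the member were both taken from counts thinned to 5000 UMIs, an *Egfr* UMI was found in 36.9% (35.4 to 38.4) of nuclei without *Pdgfra* and in 5.68% (4.84 to 6.60) of those with 2 or more. The shares were 9.27% and 28.8% for *Erbb3*, 18.7% and 45.1% for *Tgfa*, and 64.5% and 94.5% for *Erbb4*. *Hbegf* was in 15.9% and 10.1%, *Nrg1* in 22.5% and 29.5%, *Nrg3* in 12.5% and 15.1% and *Nrg2* in 24.0% and 29.9%. Thinning moves nuclei into the class without *Pdgfra*, which then held 3817 nuclei, so these classes are not the same nuclei as above. On the levels, the ratio after thinning was 8.58 (7.47 to 9.88) for *Egfr*, 0.300 for *Erbb3* in place of 0.0676 and 0.381 for *Tgfa* in place of 0.165. *Erbb4* at 0.531, *Nrg3* at 0.832, *Hbegf* at 1.78 and *Erbb2* at 1.75 were no longer past 2-fold, and *Nrg1* was at 0.930. Of all genes, 4.53% were at least 2-fold higher and 1.03% at most 0.5 times as high after thinning. Within quartiles of UMIs per nucleus, which keep the classes as they were, the ratio of *Egfr* was 6.20, 15.8, 16.3 and 8.82 from the shallowest to the deepest nuclei, and that of *Erbb4* 0.337, 0.231, 0.197 and 0.282. *Tgfa* ran from 0.120 to 0.227 and *Erbb3* from 0.0569 to 0.123 there, and *Erbb2* from 3.77 to 5.42. *Hbegf* was at 2.23, 2.59, 2.20 and 1.94 and *Nrg3* at 0.647, 0.370, 0.343 and 0.581. *Nrg1* was higher without *Pdgfra* in the shallowest quartile, with 1.16 (1.04 to 1.28), and lower in the others, with 0.468, 0.396 and 0.327. For *Erbb4*, *Tgfa* and *Erbb2* the ratio after thinning thus lay closer to 1 than within any quartile. The part of the changed classes in this was not tested. The same was seen for *Erbb3*, but the size of its ratio within quartiles 2, 3 and 4 is not read. Its level without *Pdgfra* there was under the share of free RNA given further on. Before thinning, *Egfr* was detected in 68.5% and 15.7%, and *Erbb3* in 4.06% and 54.3%.

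A share of at most 5% mitochondrial UMIs left 1954 nuclei, 455 of them without *Pdgfra* and 1208 with 2 or more. The ratio there was 6.76 (6.04 to 7.58) for *Egfr*, 2.27 for *Erbb2*, 1.92 for *Hbegf*, 0.0911 for *Erbb3*, 0.255 for *Tgfa*, 0.427 for *Erbb4* and 0.411 for *Nrg3*, so that these 7 members kept their direction. That of *Nrg1* was 1.31 (1.20 to 1.42) and turned from lower to higher. Over all genes 450 (3.98%) were at least 2-fold higher and 255 (2.25%) at most 0.5 times as high in these nuclei, against 1215 and 916 in all kept nuclei.

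The nuclei without *Pdgfra* were not spread evenly over the library. Clustering of the kept nuclei gave 8 clusters, which go by number here, and 1557 of the 2341 nuclei without *Pdgfra* (66.5%) lay in cluster 1, led by *Adm*, *Grin2a* and *Tsix*, and 480 (20.5%) in cluster 3, led by *Ralyl*, *Tafa1* and *Tafa2*. Of the nuclei with 2 or more *Pdgfra* UMIs, 1.06% lay in cluster 1. Because the variable genes included all members but *Erbb2* and *Nrg4*, levels by cluster are descriptions. The level of 7 of the 10 members differed at least 10-fold between the highest and the lowest cluster, also at a resolution of 0.4 with 6 clusters, and *Nrg2*, *Nrg4* and *Hbegf* were the exceptions. Of 14531 genes with at least 100 UMIs, 9.41% differed as much at the first resolution and 8.26% at the second, with the lowest level taken at no fewer than 3 UMIs. Since the clusters were drawn with these genes, nothing is read from the 7 members.

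Cluster 1 had the highest *Egfr* level, 236 CPM (229 to 242), followed by clusters 7 and 3 at 111 (97.8 to 126) and 102 (97.4 to 107), which overlapped. Cluster 5 was at 50.05 CPM and the other 4 clusters were between 2.66 and 5.72. *Erbb3* was highest in clusters 4 and 2, at 130.2 (125 to 135) and 115 CPM (110 to 120), and was itself among the genes leading cluster 4. Clusters 6, 5, 7 and 0 followed at 80.1, 67.9, 51.3 and 19.6 CPM, and clusters 3 and 1 were lowest at 7.27 and 3.34. The clusters highest in *Egfr* were thus low in *Erbb3*, with clusters 5 and 7, which had both, and cluster 0, which had little of either, as exceptions.

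*Nrg3* was high in few clusters. Cluster 0, of which it was the leading gene, had 176 CPM (171 to 181), clusters 3 and 5 had 109 and 49.5, and the other 5 had 1.39 to 3.87. *Nrg1* was highest in cluster 3 at 255 CPM (248 to 263), then in cluster 6 at 205, and lowest in cluster 1 at 18.1. The neuregulins therefore differed in where they were high, since cluster 0 had 36.9 CPM of *Nrg1* beside its high *Nrg3*, and cluster 6 had 3.87 CPM of *Nrg3* beside its high *Nrg1*. That *Nrg3* level is under the share of free RNA given further on and is read only as low. *Nrg3* lies on chromosome 14, and the share of UMIs on the rest of that chromosome was 0.602 times that of the other nuclei in cluster 3 and 0.891 times in cluster 0; the part of this in the levels was not tested.

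*Tgfa* was highest in cluster 4 at 162 CPM (157 to 168), between 97.2 and 119 in clusters 0, 2, 5 and 6, and at 67.1, 55.1 and 7.27 in clusters 7, 3 and 1. *Erbb4* was highest in cluster 2 at 1494 CPM (1478 to 1511) and lowest in cluster 1 at 134 (129 to 139), while *Hbegf* was highest in cluster 1 at 60.3 CPM (57.1 to 63.6) against at most 31.7 elsewhere. *Erbb2* was at 6.77 CPM (5.73 to 7.95) in cluster 1 and at 5.09 (2.54 to 9.10) in cluster 7, on 150 and 11 UMIs. *Nrg2* stayed between 55.4 and 96.2 CPM in all 8 clusters. Free RNA can leave a low level in nuclei that do not make a transcript, and 4 Y-linked genes, at 323 CPM in cluster 3, were still counted at 7.0 CPM in cluster 1, where 90.9% of nuclei had *Xist* UMIs only. Free RNA was not measured directly and was taken to follow the level in the whole library, where these genes were at 72.9 CPM. Cluster 1 kept 9.6% of that level, part of which may belong to its other nuclei. The 4 Y-linked genes were also among the variable genes used to draw the clusters, so this share is a working limit only. The lowest clusters kept 4.39% of the library level for *Egfr*, 5.76% for *Erbb3*, 2.55% for *Nrg3* and 7.79% for *Tgfa*, all below that share, and these values are not read as expression. All levels of *Egfr* and *Nrg3* lower than those of cluster 5 were under that share as well and are not read either. *Pdgfra* itself kept 7.57% in cluster 1, so some *Pdgfra* UMIs there may be free RNA. The part of free RNA in the *Pdgfra* classes was not tested. *Nrg1* kept 14.9% and *Erbb4* 13.4%. Over the library, the *Erbb3* level without *Pdgfra* was also under it, at 8.72%, so that this gene is given as lower there and the size of its ratio is not read further. The same holds for the levels without *Pdgfra* of *Erbb3*, *Erbb4*, *Tgfa* and *Nrg3* in cluster 1, of *Erbb3* in cluster 3, of *Erbb3*, *Tgfa* and *Nrg3* in nuclei with *Xist* only and of *Erbb3* in those with Y-linked UMIs only, all given further on. It also holds for *Erbb3* without *Pdgfra* in depth quartiles 2, 3 and 4, whose ratios are given above.

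**Figure D2:**
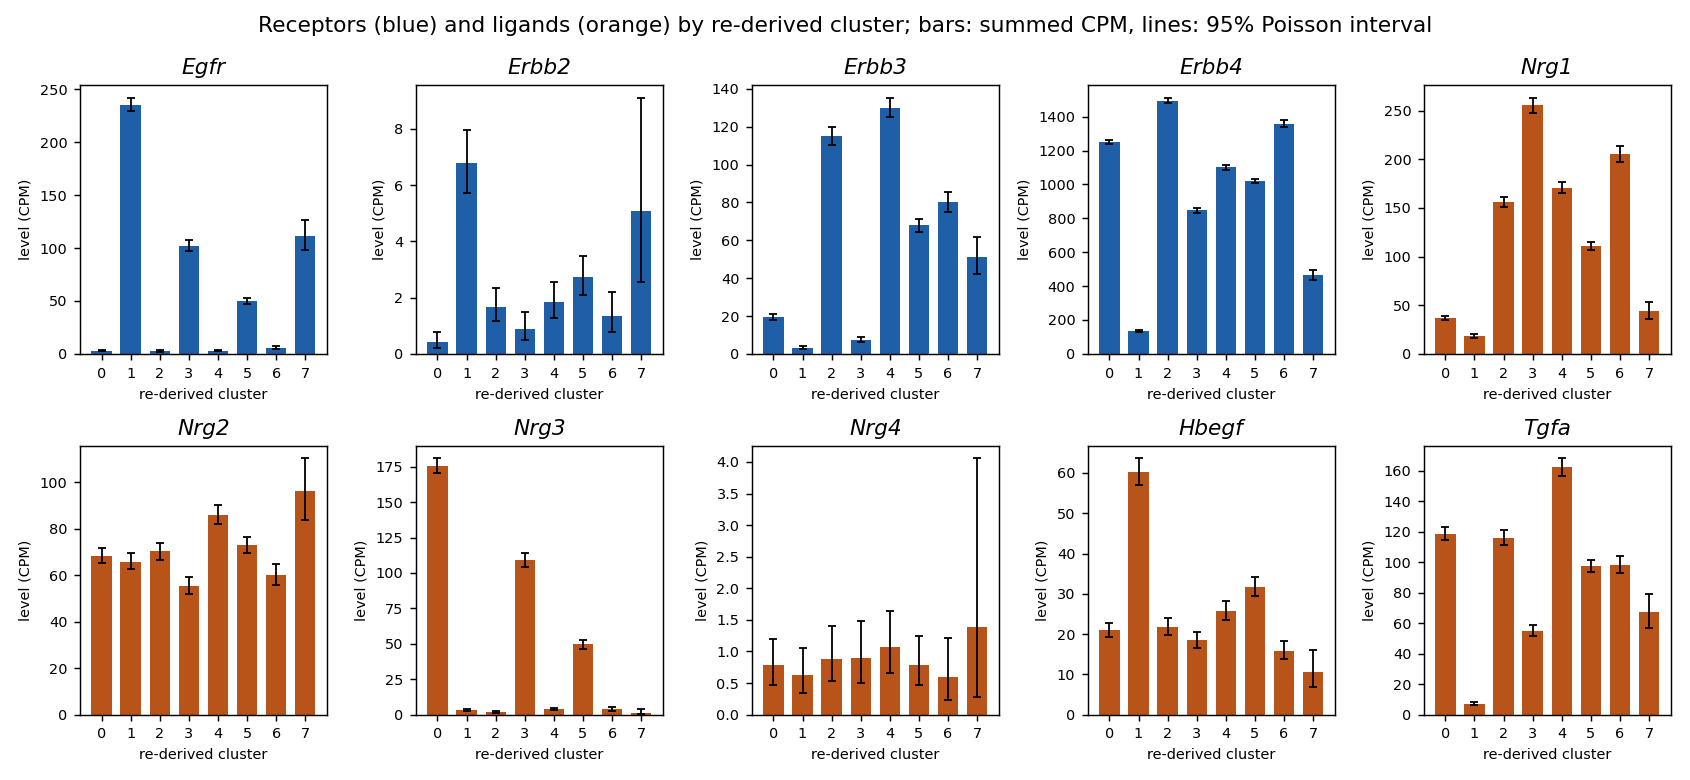
Level of each member (CPM, linear axis from 0) in re-derived clusters 0 to 7 of the 1 library; bars are summed CPM and lines 95% exact Poisson intervals. *Egfr* peaks in cluster 1 at 236 CPM, *Nrg3* in cluster 0 at 176, *Erbb3* in cluster 4 at 130.2 and *Nrg1* in cluster 3 at 255, while *Nrg2* stays between 55.4 and 96.2.

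Only part of the ratios between the *Pdgfra* classes held within or outside these clusters. Without cluster 1, 784 nuclei without *Pdgfra* and 5517 with 2 or more remained, and *Egfr* was at 102 and 19.5 CPM, a ratio of 5.23 (4.81 to 5.68). *Erbb3* was at 14.3 and 75.5 CPM (0.189, 0.155 to 0.228) and *Tgfa* at 56.2 and 117 (0.480, 0.435 to 0.528). *Erbb4* was closer to equal, at 832 and 1205 CPM, a ratio of 0.691 (0.674 to 0.708).

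The direction of *Erbb2* and *Hbegf* did not hold without cluster 1, where their ratios were 0.796 (0.374 to 1.5) and 0.922 (0.784 to 1.08) and both intervals included 1. *Nrg1* and *Nrg3* turned from lower to higher, with ratios of 1.62 (1.54 to 1.71) and 1.60 (1.48 to 1.73). Without clusters 1 and 3 the ratio of *Nrg1* was 0.876 and that of *Nrg3* 1.42. Within cluster 1, *Nrg1* was at 13 CPM without *Pdgfra* and 79.3 with 2 or more, and *Nrg3* at 1.27 and 23.8.

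Within cluster 3, with 480 nuclei without *Pdgfra* and 516 with 2 or more, *Egfr* was at 138 and 80.5 CPM (1.71, 1.54 to 1.91), *Erbb3* at 1.09 and 13.1 CPM (0.0835, 0.0266 to 0.201) and *Tgfa* at 40.1 and 66.9 CPM (0.599, 0.505 to 0.709). Within cluster 0, with 144 and 1460 nuclei, *Egfr* was at 7.06 and 2.51 CPM (2.81, 1.28 to 5.57) on 10 and 55 UMIs. The second level is under the share of free RNA, so this ratio is not read. *Erbb3* was at 7.76 and 20.4 CPM there and *Tgfa* at 84.7 and 123. Over the 20 alternatives, which include clusters 0, 1 and 3 but no other single cluster, *Egfr* was at 1.60 to 16.3 apart from cluster 0, and *Erbb4* and *Tgfa* at 0.197 to 0.902 and 0.120 to 0.687 apart from cluster 1. *Erbb3* was at most 0.404 in all of them. The other clusters held few nuclei without *Pdgfra*. In clusters 5 and 7, with 41 and 20 such nuclei, the *Egfr* ratio was 4.18 (3.38 to 5.13) and 2.22 (1.54 to 3.15), while in clusters 2, 4 and 6 at least 1 *Egfr* level was under the share of free RNA and no ratio is read. In cluster 5 the median depth was 13729 UMIs without *Pdgfra* and 31484.5 with 2 or more, and 16.9% of its nuclei had both *Xist* and Y-linked UMIs. The part of depth, or of RNA from more than 1 nucleus, in the ratio of cluster 5 was not tested. In cluster 2, with 42 and 1203 nuclei, *Erbb3* (0.967, 0.726 to 1.26), *Erbb4* (0.992, 0.921 to 1.07) and *Tgfa* (0.826, 0.607 to 1.10) had intervals that included 1. In cluster 6, with 28 and 585 nuclei, the intervals of *Erbb3* (0.656, 0.393 to 1.03) and *Tgfa* (0.811, 0.541 to 1.17) included 1 as well, as did that of *Tgfa* in cluster 7 (0.608, 0.272 to 1.19).

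Within cluster 1, 1557 nuclei without *Pdgfra* stood against only 59 with 2 or more, whose median depth was 27871 UMIs against 11384. *Egfr* was at 242 and 151 CPM in them, *Erbb4* at 93.1 and 598, *Tgfa* at 3.77 and 48.3 and *Erbb3* at 1.22 and 28.6. The deeper nuclei thus had lower *Egfr* and higher levels of the members that were low in the rest of the cluster. Whether they hold the RNA of more than 1 nucleus was not tested.

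**Figure D3:**
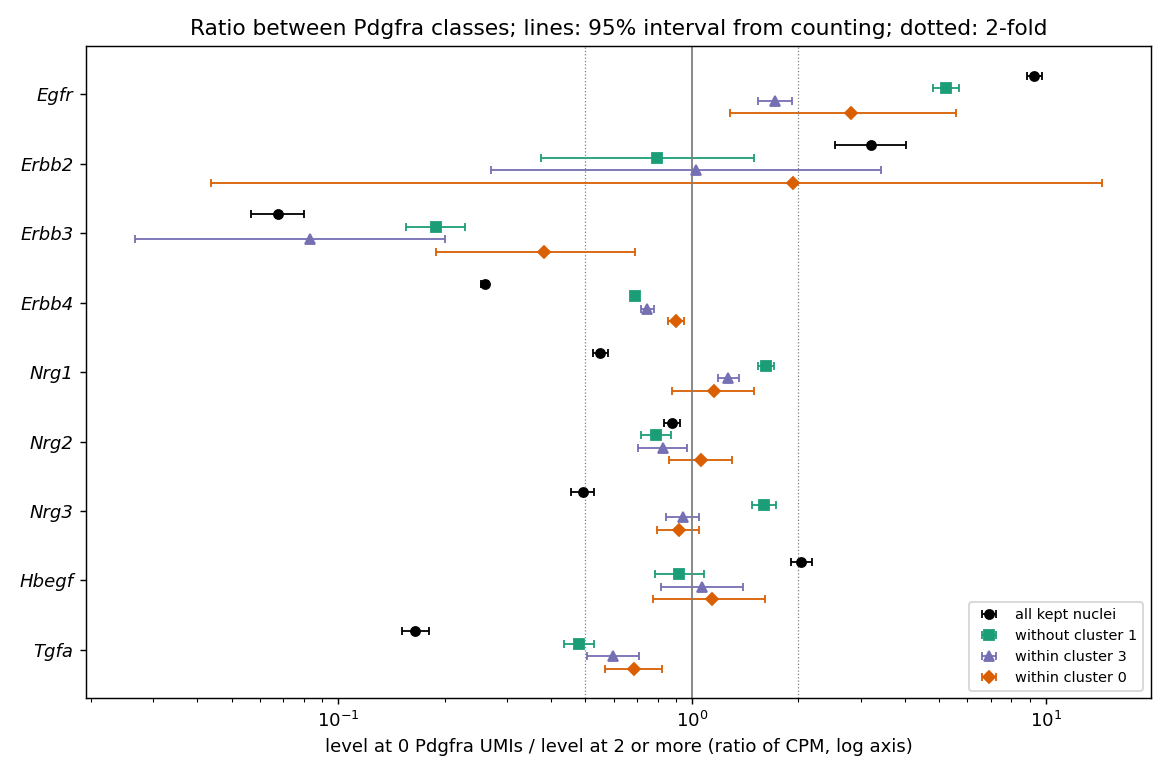
Ratio of the level without *Pdgfra* UMIs to the level with 2 or more (log axis) for 9 members, in all kept nuclei, without cluster 1, within cluster 3 and within cluster 0; lines are 95% intervals from counting, dotted lines mark 2-fold, and *Nrg4* is left out for its low counts. *Egfr* lies above 1 and *Erbb3*, *Erbb4* and *Tgfa* below 1 in all kept nuclei, without cluster 1 and within cluster 3, *Egfr* within cluster 0 rests on 10 and 55 UMIs, and *Nrg1* and *Nrg3* cross from 0.550 and 0.491 to 1.62 and 1.60 without cluster 1.

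The pups were of either sex, and the *Pdgfra* classes differed in sex-linked transcripts: 62.0% of nuclei without *Pdgfra* had *Xist* UMIs and no Y-linked UMI, against 6.21% of those with 2 or more. *Egfr* was at 188 CPM (183 to 194) in 1934 nuclei with *Xist* only, at 47.5 (45.3 to 49.8) in 2309 with Y-linked UMIs only, at 134 (125 to 144) in 264 with both and at 11.7 (10.9 to 12.5) in 4410 with neither. *Erbb3* was at 21.3, 35.5, 27.004 and 86.3 CPM in the same sets and *Tgfa* at 31.1, 91.0, 62.8 and 121. Outside cluster 1 the levels of *Egfr* were 69.96, 47.2, 88.5 and 9.70 CPM. In nuclei with neither kind of UMI, which held 345 nuclei without *Pdgfra* and 3616 with 2 or more, the *Egfr* ratio was 12.5, that of *Erbb3* 0.262 and that of *Tgfa* 0.505. The *Egfr* levels behind it were 81.4 and 6.52 CPM. The second lies just above the share of free RNA, so only the direction of the *Egfr* ratio is read there. In nuclei with *Xist* only, 1452 without *Pdgfra* and 346 with 2 or more, the ratio was 3.00 (2.77 to 3.26) for *Egfr*, 0.0253 for *Erbb3* and 0.0478 for *Tgfa*. In those with Y-linked UMIs only, 462 and 1468 nuclei, it was 4.30 (3.85 to 4.79), 0.0846 and 0.387. The direction of these 3 members was thus the same in all 3 sets, while *Nrg1* had ratios of 0.130, 1.57 and 1.60 and *Nrg3* of 0.0558, 1.08 and 1.42 with *Xist* only, Y-linked UMIs only and neither.

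Joint detection in the same nucleus was taken from the thinned counts, as the number of nuclei with both genes over the product of their shares. *Egfr* was found in 1815 nuclei, *Erbb3* in 1658 and both in 63, where the product of the shares gives 344, a ratio of 0.183. *Egfr* and *Tgfa* shared 200 nuclei against 567 (0.353), and *Egfr* and *Hbegf* 335 against 231 (1.45). Summed within clusters, the products were 81.3, 234 and 341, and the ratios 0.775, 0.855 and 0.982. The ratios were closer to 1 within clusters, which these genes helped to shape.

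*Erbb3* and *Tgfa* shared 738 nuclei against 518 (1.42, and 1.05 within clusters), and *Erbb3* and *Nrg1* shared 593 against 447 (1.33 and 1.04). *Erbb3* and *Nrg3* shared 66 against 238, a ratio of 0.278 that was 0.578 within clusters. *Nrg2* stood near its product with *Egfr* (0.987) and with *Erbb3* (1.09). Counted on unthinned nuclei, 1569 had 2 or more *Egfr* UMIs and no *Erbb3* UMI, of which 70.2% were without *Pdgfra*, and 1793 had 2 or more *Erbb3* UMIs and no *Egfr* UMI, of which 93.5% had 2 or more *Pdgfra* UMIs. Only 147 nuclei had 2 or more of both, with a median of 30865 UMIs, and 70.7% of them were in cluster 5, where 16.9% of nuclei had both *Xist* and Y-linked UMIs. The part of doublets in these 147 nuclei was not tested.

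**Figure D4:**
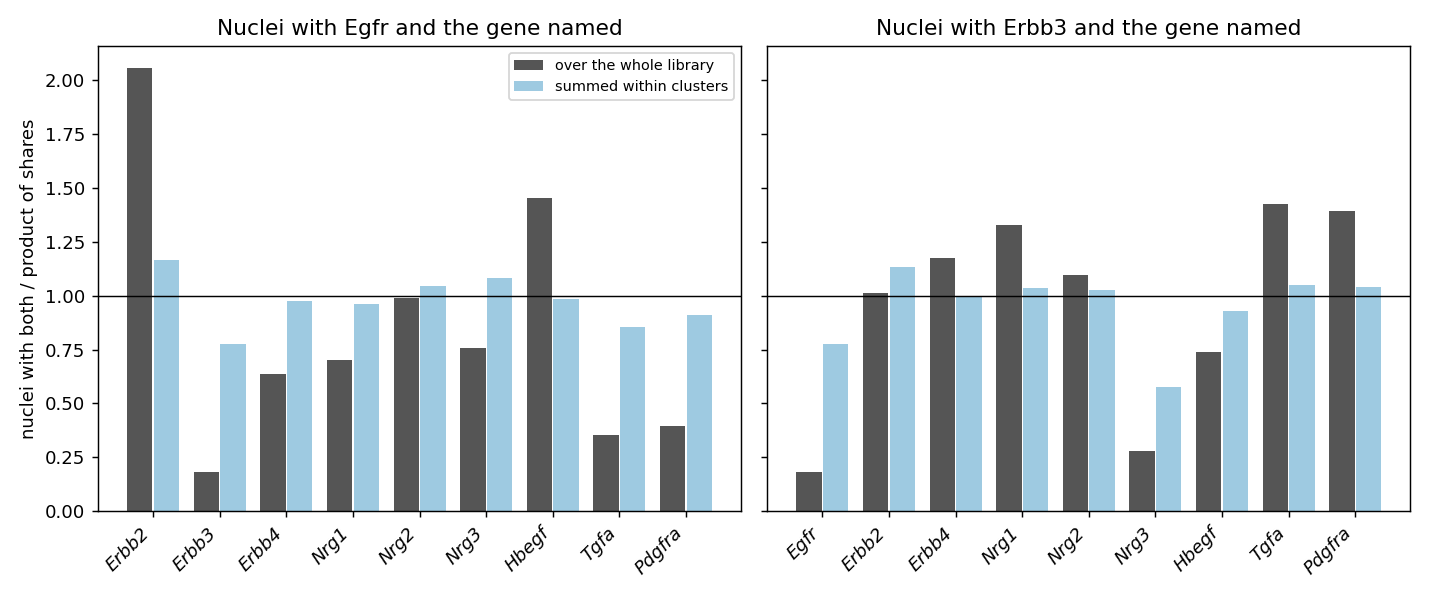
Nuclei with *Egfr* (left) or *Erbb3* (right) and a second gene, as observed number over the product of shares (linear axis from 0), over the whole library and summed within clusters, for 8760 nuclei thinned to 5000 UMIs. *Egfr* with *Erbb3* is at 0.183 over the library and 0.775 within clusters, and the *Egfr* with *Erbb2* bar rests on 40 nuclei.

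The genes whose pattern over the 8760 thinned nuclei was most like that of a member were taken by Pearson's r of log counts over 9195 genes, as a description of nuclei of 1 library that share depth and cluster. For *Egfr* they were *Igfbp2* (0.49), *Xist* (0.48) and *Vav3* (0.45), and for *Erbb4* *Dcc* (0.65), *Cntn1* (0.64) and *Pcdh15* (0.61). For *Erbb3* they were *Fam135b* (0.30), *Auts2* (0.28) and *Col11a1* (0.28), and for *Tgfa* *Ppp2r2b* (0.30), *Cntn1* (0.29) and *Sox6* (0.29). *Nrg3* was most like *Brinp3* (0.40), *Nalf1* (0.30) and *Pcdh11x* (0.27), and *Nrg1* most like *Sntg1* (0.30), *Sgcd* (0.29) and *Lrp1b* (0.27). *Hbegf* reached 0.19 at most, with *Apln*, and *Nrg2* 0.07, with *Auts2*, so neither had a close companion at this depth.

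The culture divides, so levels were also compared between the lowest and the highest quartile of nuclei by their share of UMIs on 12 G2/M genes, 2230 nuclei each. *Erbb4* was lower in the highest quartile, with a ratio of 0.771 (0.759 to 0.782), and *Tgfa* higher, with 1.18 (1.12 to 1.24). *Egfr* had a ratio of 1.15 (1.07 to 1.23), which was 0.980 (0.884 to 1.09) without cluster 1. *Erbb3*, *Nrg3* and *Hbegf* had intervals that included 1. No member differed 2-fold along this axis.

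Genes of the pathway around the receptors were taken from lists of further ligands, shedding proteases, adaptors, negative regulators and ERK output genes, of which 33 had at least 100 UMIs over both *Pdgfra* classes. Of these, 5 were at least 2-fold higher in nuclei without *Pdgfra* and 0 at most 0.5 times as high, beside 8.49% and 6.4% of all genes tested. Without cluster 1 there were 0 in either direction, beside 4.33% and 1.35% of all genes. *Lrig1*, which encodes a membrane protein that restrains ErbB receptors, was at 116 CPM without *Pdgfra* and 13.2 with 2 or more, a ratio of 8.82 (8.27 to 9.40), and at 21.4 and 11.9 CPM (1.80, 1.53 to 2.12) without cluster 1. *Adam17*, the protease that releases TGFα and HB-EGF from the membrane, was at 89.1 and 37.5 CPM (2.37, 2.25 to 2.50), and 1.30 without cluster 1. The other 3 were the adaptor *Shc1* (2.37), the ubiquitin ligase gene *Cblb* (2.15) and the ERK phosphatase gene *Dusp4* (3.19), at 1.08, 1.19 and 0.989 without cluster 1.

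Other ligands of the family were low: *Egf* was at 4.94 and 3.61 CPM, *Btc* at 1.42 and 0.739 and *Areg* at 1.31 and 1.34, and *Ereg* had 0 UMIs without *Pdgfra*. The adaptor *Grb2*, which links receptors to RAS, had a ratio of 0.987, *Gab1* 0.619 and the PI3-kinase subunit gene *Pik3r1* 0.539, and the ERK target *Etv5* was at 298 and 171 CPM (1.74). The level of *Pik3r1* was 1.07 times as high without cluster 1.

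Lineage and other cell type markers also differed between the *Pdgfra* classes. Of 9 OPC markers besides *Pdgfra*, 4 were at most 0.5 times as high without *Pdgfra* and 0 at least 2-fold higher, beside 6.4% and 8.49% of all genes tested, which are also the shares beside the counts of the other lists here. Their list with *Pdgfra* summed to 3013 and 6536 CPM. Without cluster 1 there were 0 in either direction, beside 1.35% and 4.33% of all genes: the ratio of *Cspg4* was 0.820 in place of 0.338, that of *Lhfpl3* 0.95 in place of 0.295 and that of *Sox10* 0.574 in place of 0.188, and *Vcan*, *Brinp3* and *Nkx2-2* turned to 1.32, 1.74 and 1.97. *Sox10*, a lineage transcription factor, was at 20.1 and 107 CPM, while *Olig1* was at 530.4 and 641. Of the genes of committed oligodendrocytes, *Bcas1* was at 102 and 405 CPM, the receptor gene *Gpr17* at 2.25 and 11.7 and the transcription factor gene *Myrf* at 1.24 and 5.91, while *Mag* had 0 UMIs without *Pdgfra*. *Enpp6* ran the other way, at 0.599 and 0.0972 CPM on 16 and 10 UMIs, as did *Mobp* on 2 and 4 UMIs (0.0749 and 0.0389 CPM). Neuronal markers, 1 higher (*Rbfox3* at 13.8 and 1.41 CPM, a ratio of 9.78) and 1 lower (*Nefm*, 0.376) of 6, summed to 94.5 and 150 CPM with *Slc17a6* at 0 without *Pdgfra*, and astrocyte markers, 0 higher and 2 lower (*Slc1a2* and *S100b*) of 5, to 558 and 523 CPM with *Aqp4* at 0. Endothelial markers summed to 17.3 and 10.2 CPM, with 3 of 4 higher (*Flt1*, *Kdr* and *Tek*) and *Cldn5* at 0 in both classes, and microglial markers to 8.09 and 7.29 CPM, with 0 of 2 past 2-fold and *C1qa*, *C1qb* and *Aif1* at 0 without *Pdgfra*. Fibroblast or pericyte markers summed to 0.749 and 0.690 CPM, with *Dcn* and *Kcnj8* at 0 without *Pdgfra*. The part of these differences in the levels of the members was not tested.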

How the data were processed

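Of the 7 samples, 1 library was used, a 10x 3' snRNA-seq of BB-p53n OPCs in culture. Its values are raw UMI counts that the authors deposited for each gene and barcode, made with Cell Ranger 8.0.1 and build mm39 per the submitters' processing notes, without normalization and before filters on detected genes. Unspliced RNA counts in such a nuclear library, so levels follow gene length as well as transcription.

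Nuclei with 2000 to 8000 detected genes, the cutoffs the methods state, were kept. These left 8917 of 10047 barcodes, while the study lists 1954 nuclei after filtering. That is also the number here with at most 5% mitochondrial UMIs, a filter the methods do not state, and its values are given beside the others. UMIs were summed and divided by total UMIs (CPM), with 95% exact Poisson intervals; ratios and shares of nuclei have exact binomial intervals. A gene was counted past 2-fold at a ratio of at least 2 or at most 0.5, among all genes given at least 100 UMIs over both classes, and among the members at any number of UMIs. Clusters came from Seurat 5.3.0 in R 4.3.3 (scale factor 1000, 3000 variable genes, total counts regressed out, the leading 20 components, 200 neighbors, resolution 1.0, the settings the methods give for the tumor data). The clusters here are not those of the study, which had another set of nuclei. Other values used Python 3.11.15 with SciPy 1.17.1. Gene spans came from GENCODE vM39 on GRCm39. Of the 10 members, 6 had an entry in the RefSeq promoter table; *Erbb3*, *Nrg1*, *Nrg2* and *Hbegf* had none. Ratios were tested on simulated data, and thinning by comparing thinned with unthinned shares in a part of the nuclei.

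The members, the *Pdgfra* classes and the gene lists were chosen with earlier results of these data known. The genes named are the members, *Pdgfra*, the genes of the lists, the 3 highest and 3 lowest ratios, and the 3 genes most like each member detected in at least 10% of thinned nuclei. Genes that lead a cluster only identify it. No doublet caller was run and no nuclei were removed as doublets; alternatives left out the 10% of nuclei with the most UMIs or those with both *Xist* and Y-linked UMIs. With 1 library there is no replicate and no test. Other alternatives changed the gene range, mitochondrial share, depth, class limits, normalization, sex-linked sets, clusters and the UMI minimum. Those without clusters 1 and 3, within clusters and within depth quartiles were chosen after seeing the data. A marker gene, and the sums of the list that holds it, are not reported here.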

Additional observations from a re-analysis of the deposited data

Results flagged for a closer look

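Barcodes with fewer than 2000 detected genes, 918 in all, entered only the alternative with all deposited barcodes, where the *Egfr* ratio was 7.99 (7.63 to 8.36). In these barcodes 9 members were counted above the limit of 3 UMIs. *Erbb4* was at 1063 CPM (1015 to 1112), above the 1002 of the kept nuclei. *Nrg3* was at 69.4 CPM (57.7 to 82.9) against 54.5, and *Tgfa* at 76.3 (63.9 to 90.3) against 93.3. *Hbegf* was at 17.6 CPM (12 to 25) against 28.8. For these 4 members the interval did not hold the level of the kept nuclei. *Egfr* was at 65.4 CPM, *Erbb3* at 54.1, *Nrg1* at 125, *Nrg2* at 67.1 and *Erbb2* at 2.28 (4 UMIs), and their intervals did.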

How the results depend on the processing

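No paired analysis was possible because only 1 library was analysed. Members were counted past 2-fold at any number of UMIs, and the count of those with at least 100 UMIs in the set is given with each. The count of members at least 2-fold higher without *Pdgfra*, 3 in all, was 1 after thinning, in nuclei with neither *Xist* nor Y-linked UMIs, without cluster 1 and without clusters 1 and 3, which was *Egfr* each time. It was 1 within cluster 0 (*Egfr* on 10 and 55 UMIs) and within cluster 1 (*Nrg4* on 12 and 0 UMIs), and 0 within cluster 3, with 0 on at least 100 UMIs in all 3. The count at most 0.5 times as high, 4 in all, was 2 in nuclei with neither, without clusters 1 and 3, within cluster 0 and within cluster 3, and 1 on at least 100 UMIs, *Erbb3* each time. It was 6 at 10000 UMIs or more and within depth quartile 3 (5 on at least 100 UMIs), and 5 within depth quartiles 2 and 4 and cluster 1 (5, 4 and 3), where *Nrg1* was at 0.394, 0.396, 0.468, 0.327 and 0.164. Of all genes with at least 100 UMIs, 8.11% were as low at 10000 UMIs, 8.76%, 7.15% and 6.21% within depth quartiles 3, 2 and 4, 3.25% within cluster 1, 1.21% within cluster 0, 0.211% within cluster 3, 1.17% without clusters 1 and 3, 1.26% with neither and 1.03% after thinning. As high were 4.53% after thinning, 4.77% with neither, 3.08% without clusters 1 and 3, 0.513% within cluster 0, 1.94% within cluster 1 and 0.161% within cluster 3. *Erbb2* reversed to 0.796 without cluster 1 and 0.929 without clusters 1 and 3, *Hbegf* to 0.922 without cluster 1, and *Nrg3* to 1.60, 1.42 and, in nuclei with neither, 1.42. *Nrg1*, not past 2-fold, lay above 1 in 6 of 20 alternatives. Over all genes, 1215 higher and 916 lower became 450 and 255 at no more than 5% mitochondrial UMIs, 536 and 122 after thinning, 606 and 160 with neither, 598 and 186 without cluster 1, 4820 and 4240 without a UMI minimum and 448 and 535 at 1000 UMIs. The causes were not tested. The *Nrg4* ratio could not be given within clusters 0 and 1, where 1 class had 0 UMIs. Shares of nuclei depend on depth: *Egfr* was in 14.8% of nuclei at 3000 UMIs and in 31.6% unthinned, against 20.7%.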
